A study of Homo sapiens with 24 samples.

Results

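Peaks of N6-methyladenosine (m6A) were described on the transcripts of 10 human genes of mRNA deadenylation, in pluripotent stem cells and along their differentiation to pancreatic cells. The genes were CNOT1, CNOT2, CNOT3, CNOT4, CNOT6, CNOT6L, CNOT7, CNOT8, TOB1 and BTG2. A peak counted for a gene where its deposited gene identifier held the Ensembl identifier of that gene, and 136 of the 228472 peaks in the 6 deposited lists did so. m6A-seq sequences RNA fragments bound by an antibody against m6A (IP) beside the fragments before binding (input), so that a methylated stretch stands out as IP over input.

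The 24 libraries formed 12 groups of 2, with IP and input groups for 6 populations, and all cells descended from the MEL1 human embryonic stem cell line, which carries a GFP reporter at the insulin gene. The first 4 populations came from 1 stepwise differentiation in stage-specific media, namely undifferentiated cells (hPSC), cells at the definitive endoderm stage (DE), pancreatic progenitors (PP) and, last, islet-like organoids (hILO). Wild-type PP (WT PP) and PP made from cells in which the m6A demethylase ALKBH5 had been knocked out (A5-KO PP) came from a separate experiment. The knockout used CRISPR-Cpf1 against the first exon of ALKBH5 and picked colonies, so A5-KO PP stand for a line grown from a colony. The first experiment used mRNA and a SYSY antibody. The second used total RNA, a Millipore antibody, another library kit and rRNA depletion of the input, so that batch and experiment cannot be told apart and levels of the 2 experiments were not compared. The 2 libraries of a group were pooled in each list. There was therefore 1 value per population and no replicate check, and errors cover counting only.

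CCR4-NOT is the main deadenylase of the cytoplasm. It shortens the poly(A) tail of an mRNA, after which the message is decapped and degraded or no longer translated. CNOT1 is the scaffold, CNOT2 and CNOT3 form the NOT module, CNOT6 or its paralog CNOT6L and CNOT7 or its paralog CNOT8 are the catalytic subunits, and CNOT4 is an E3 ubiquitin ligase that associates with the complex. TOB1 and BTG2 are antiproliferative adaptors that bring the complex to mRNAs. The m6A reader YTHDF2 recruits CCR4-NOT to methylated mRNAs through CNOT1, so the transcripts described here encode the machinery that acts on m6A-marked messages.

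Overlapping peaks of the 6 lists were merged into 52 regions on the 10 genes, and 7 regions on 5 genes were found in all 6 lists, where 9.38% of the regions of all peaks, merged in the same way, were. For 5 of these, the m6A consensus site nearest to the middle of the bases shared by the 6 lists is printed here with 10 bases on each side, because these stretches lay under a peak in every population. The consensus is DRACH (D stands for A, G or T, R for A or G, and H for A, C or T), its 5 bases are in capitals, and a site holding GGAC was preferred. Sequences are from GRCh38, written 5′ to 3′ on the strand of the transcript. They lie at chr12:70353984-70354008 and chr12:70354839-70354863 (plus strand, 3′ UTR of CNOT2), chr7:135394267-135394291 (minus, coding exon 10 of CNOT4), chr17:50863685-50863709 (minus, coding sequence of TOB1) and chr1:203307647-203307671 (plus, 3′ UTR of BTG2). The region of CNOT4 after its stop codon shared 25 bases among the 6 lists, and these held no DRACH site.
CNOT2 region 3: cataactgcaGAACTgatgtggctc
CNOT2 region 4: gaatgtgatgGGACTtaaaagaagt
CNOT4 region 1: gattgagaagGAACTgtccgttcaa
TOB1 region 2: tggtgaaaagGGACCagtgaaggtg
BTG2 region 2: cctttggagaGAACTgttgcgtgct
A DRACH match is a description of the letters under a peak and does not place the methylated base.

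Before any level was read, the rows of the lists were checked, because in long stretches the counts of a row did not go with the peak of that row. Longer peaks hold more IP reads. Where the counts belonged to their own row, Spearman's rho across peaks of length and IP reads was 0.535 to 0.645 in the 6 lists. In other stretches it was -0.0208 to 0.0327 as deposited, and 0.443 to 0.519 once the counts were taken from other rows, at an offset that was constant over long runs of rows. The input reads had no part in finding these offsets. For the same peak in WT PP and A5-KO PP they correlated at 0.92 over 318 peaks in their own rows, and over 1070 peaks in other rows at 0.38 as deposited and 0.69 when re-paired. Between successive stages the correlations were lower. From hPSC to DE, DE to PP and PP to hILO they were 0.858, 0.796 and 0.858 in own rows, and in other rows 0.339, 0.194 and 0.279 as deposited and 0.617, 0.53 and 0.549 when re-paired, so re-paired values are less certain than own-row values. Pairs of peaks, input reads and offsets within a list share the library and its depth, and peaks are not independent replicates. The cause of the displacement was not tested.

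**Figure D1:**
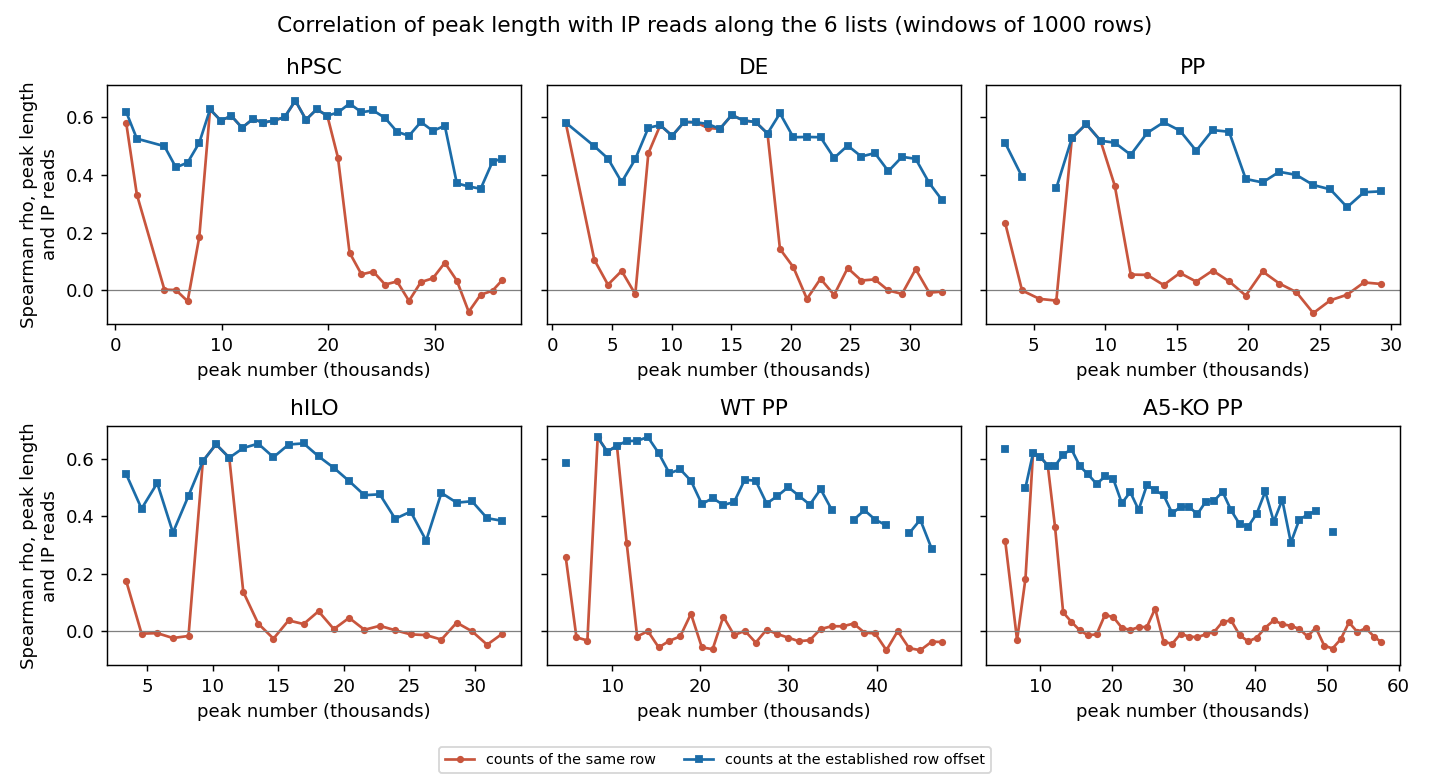
Spearman's rho between peak length and IP reads in windows of 1000 rows (vertical axis) along the running number of the peaks divided by 1000 (horizontal axis), for each of the 6 lists. Red circles use the counts of the same row and blue squares the counts at the established row offset, and red falls to around 0 over long stretches of each list while blue stays above it.

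Of the 136 peaks, 35 had their values in their own row, 47 had counts that were found in another row, and 54 had no established pairing. Own-row peaks are given with input reads, IP reads and the deposited log2 enrichment. Peaks of the other rows are given with re-paired counts only, called re-paired, since the deposited enrichment of such a row carries the counts of 1 peak and a GC correction that followed the letters of another. Positions do not depend on the pairing. Per list, 55.7% to 83.8% of all peaks had an established pairing.

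The lists held 6987612 to 28463998 input reads and 30723097 to 79822815 IP reads within peaks, which are not library totals. Peaks on ALKBH5 numbered 3, 3, 3, 3, 4 and 5 in hPSC, DE, PP, hILO, WT PP and A5-KO PP. The 4 peaks of WT PP held 475 to 5683 input reads after re-pairing, and none of the 5 in A5-KO PP had an established pairing, so the reads did not check the knockout, and a small deletion need not remove them. Peaks on some stage markers followed the labels and those on others did not. Peaks on the pluripotency factors POU5F1 and NANOG occurred in hPSC and DE only, those on PDX1 and NKX6-1 of pancreatic progenitors in PP, hILO, WT PP and A5-KO PP only, and those on the hormone genes INS, GCG and SST in hILO only. None of the endoderm markers was marked in DE alone. SOX17 had 3 peaks in both DE and WT PP and 2 in A5-KO PP, FOXA2 had 2 or 3 in every list but hPSC, and CXCR4 had 1 to 4 in all 6 lists, the most in DE. CHGA carried a peak in every population and SOX9 in hPSC too. A peak also needs the RNA to be present, so the presence of a peak cannot separate methylation from expression.

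All 10 genes carried a peak in at least 1 list, against 81.8% of the 20046 protein-coding genes of the annotation. In the order hPSC, DE, PP, hILO, WT PP, A5-KO PP, the members with a peak numbered 9, 10, 9, 9, 10 and 9. The matching shares over all protein-coding genes were 60.2%, 57%, 52.2%, 57.7%, 62.8% and 69.7%. A peak was present in all 4 stages for 9 of 10 members, where 41.2% of protein-coding genes had one. In all 6 lists it was present for 8 of 10 members, against 37.7%. The members were not matched to other genes in expression, so these shares are a background and not a test. The exceptions were CNOT6L, with peaks in DE, WT PP and A5-KO PP only, and CNOT3, with none in A5-KO PP.

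The members' peaks numbered 23, 23, 22 and 20 in the 4 stages from hPSC to hILO, and 24 in both WT PP and A5-KO PP. CNOT4 had the most, 3 to 5 in each list and 25 in all. CNOT6 ranged from 1 peak in hILO to 5 in each list of the second experiment. BTG2 went the other way within the differentiation, from 1 in hPSC over 2 in DE and 2 in PP to 4 in hILO. The exonic length of the peaks ran from 25 to 900 nt with a median of 175 nt, the same as over all peaks of the series.

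**Figure D2:**
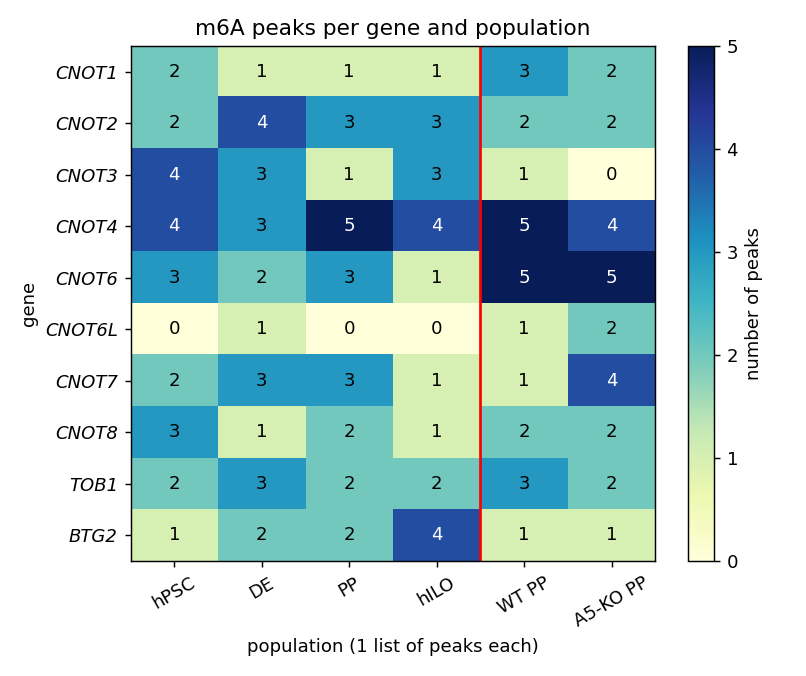
Number of m6A peaks on each of the 10 genes (rows) in each population (columns), printed in the cells and coloured from 0 to 5. The red line separates the 2 experiments, and CNOT4 holds 3 to 5 peaks in every column while CNOT6L holds 0 to 2.

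The scaffold CNOT1 (ENSG00000125107, chr16:58519951-58629885, minus strand) was marked in its coding sequence, at different exons in the 2 experiments. Region 4, at chr16:58543824-58546359 with its middle in exon 30 of 49, was found in hPSC, DE, PP and hILO and in neither WT PP nor A5-KO PP. Its values sat in their own rows in all 4 stages. hPSC had 736 input and 4360 IP reads and a log2 enrichment of 1.16. DE had 471 and 595 reads and 1.13, PP had 759 and 1533 reads and 1.13, and hILO had 1173 and 2039 reads and 1.12. The log2 enrichment of this region thus ran from 1.12 to 1.16 across the 4 stages, while the counting error of a single value was 0.0529 to 0.0889. Its log2 count ratios were less even, as given with the stage steps, and stood at -1.18 to -0.61 from the median of their lists. The peaks of region 4 held 0 DRACH sites in hPSC, DE and PP and 1 in hILO. On the opposite strand they held 2, 3, 5 and 6. Region 3, in exon 21, was found in WT PP and A5-KO PP only. Its re-paired counts were 318 input and 275 IP reads in WT PP and 414 and 428 in A5-KO PP. hPSC had a further peak at chr16:58623234-58623283, off the coding isoform used here, with 280 input reads, 1757 IP reads and a log2 enrichment of 1.24. The remaining CNOT1 peaks were a 50 nt peak in exon 2 and a 100 nt peak 384 nt after the stop codon in WT PP, with 10 input reads after re-pairing for the latter, and a 50 nt peak 134 nt after the stop codon in A5-KO PP.

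CNOT2 (ENSG00000111596, chr12:70243002-70354993, plus strand), a subunit of the NOT module, held 2 regions in its last exon in all 6 lists. Region 3 (chr12:70348018-70354400) had its shared bases centred 88 nt after the first base of the stop codon, and region 4 (chr12:70354676-70354993) 959 nt after it, at the end of the annotated transcript. Both are among the sequences shown above. In WT PP, region 3 had 240 input and 888 IP reads and a log2 enrichment of 4.90, and region 4 had 170 and 3140 reads and 7.27. In A5-KO PP, region 3 had 206 input and 506 IP reads and a log2 enrichment of 4.74, and region 4 had 89 and 2718 reads and 8.16. Region 4 was therefore the more enriched of the pair in both genotypes. After re-pairing, region 4 held 654 input and 4922 IP reads in hPSC, 535 and 2131 in DE and 280 and 1460 in PP, and its hILO peak had no established pairing. Re-paired counts of region 3 were 155 input and 3147 IP reads in hPSC. The DE list split that stretch into a peak with 264 and 378 reads and another with 128 and 190. Found in a single list were a peak at exon 7 in DE, with 100 input reads, and a peak at the 5′ end of the gene in PP, with 202, both with re-paired counts.

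CNOT3 (ENSG00000088038, chr19:54137749-54155681, plus strand), the other NOT-module subunit, was marked unevenly. The 4 stages listed 4, 3, 1 and 3 peaks on it, WT PP listed 1, and A5-KO PP listed 0. On the isoform used here none was placed in its short 3′ UTR of 273 nt, and no region was present in all 4 stages. Region 4, centred in coding exon 10 of 17, was found in hPSC, DE and hILO and not in PP. Region 2 was found in the same lists. Only its hILO peak was placed in coding exon 4, its hPSC and DE peaks lay off the isoform, and no base was common to the 3 lists. The hILO peaks over exons 4 to 10 held 342 to 1254 input reads and 794 to 3236 IP reads after re-pairing. The 3 hPSC peaks with re-paired counts were 50 nt long and had 155 to 335 input reads. The single PP and WT PP peaks lay elsewhere on the gene and had no established pairing. On the longest transcript the PP peak was placed in the 3′ UTR and the WT PP peak in the 5′ UTR.

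CNOT4 (ENSG00000080802, chr7:135361795-135510145, minus strand), the ubiquitin ligase, carried 2 regions in all 6 lists. Region 1 (chr7:135388579-135395819) spanned 1000 exonic nt and was centred in exon 10 of 12, an exon of 498 nt, at -859 nt from the stop codon, where negative positions lie before it. The longest peak in it measured 525, 675, 450 and 750 nt in the stages from hPSC to hILO and, for WT PP and A5-KO PP, 875 and 475 nt. Region 5 (chr7:135362695-135363044) had its shared bases 105 nt after the stop codon. Region 6, 1030 nt after the stop codon, was found in DE, PP and hILO. WT PP had a 50 nt peak at -233 nt from the stop codon and another off the isoform, and hILO and A5-KO PP shared a region off the isoform. None of the 25 CNOT4 peaks had an established pairing, so no read count or enrichment is given for this gene.

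**Figure D3:**
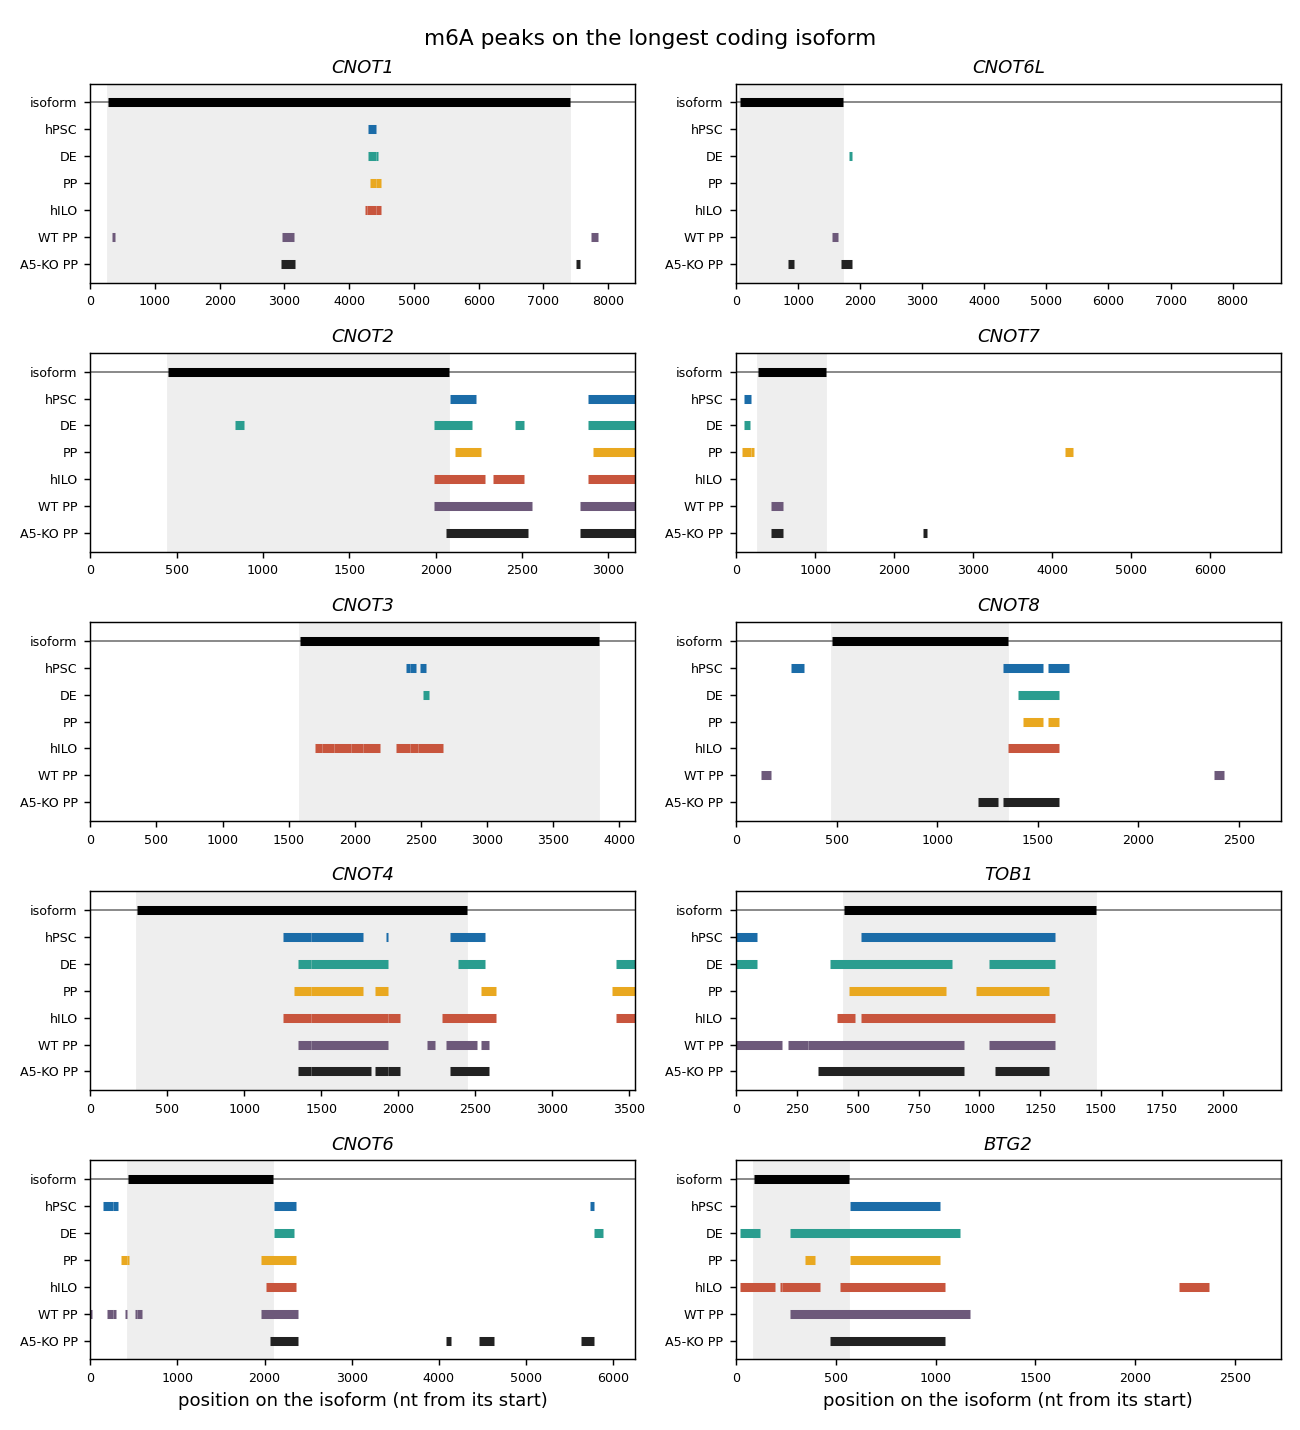
Peaks of the 6 lists (coloured bars, 1 line per population) on the longest coding isoform of each gene, with position in nt from its start on the horizontal axis. The black bar and grey band mark the coding sequence, and bars recur in all 6 lines after the stop codon of CNOT2, CNOT4, CNOT6 and BTG2 and in the coding sequence of CNOT4 and TOB1. Peaks that do not lie on the isoform are not drawn.

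The catalytic paralogs CNOT6 (ENSG00000113300, chr5:180494379-180578358, plus strand) and CNOT6L (ENSG00000138767, chr4:77713387-77819615, minus strand) differed in how often a peak was listed, with 19 peaks on CNOT6 and 4 on CNOT6L. Region 6 of CNOT6 (chr5:180574062-180574486), 126 nt after the stop codon, was found in all 6 lists. It had 88 input reads, 1017 IP reads and a log2 enrichment of 2.14 in hPSC. In the second experiment it had 529 and 2095 reads and 4.57 in WT PP, and 273 and 1321 reads and 5.03 in A5-KO PP. Re-paired counts were 14 input and 105 IP reads in PP, and the DE and hILO peaks had no established pairing. The 5′ UTR of CNOT6 was marked in hPSC (99 input and 791 IP reads, log2 enrichment 1.37), in PP (re-paired, 46 and 508 reads) and in WT PP (163 and 575 reads, 3.20, and a shorter peak with 18 and 69 reads, 4.19). The far end of its 3′ UTR, 3664 nt after the stop codon, was marked in hPSC, with 24 input and 184 IP reads and a log2 enrichment of 1.29, in the same region as a peak of A5-KO PP. DE had a peak next to it, 3739 nt after the stop codon, with no established pairing. WT PP had a further peak over exon 4, with 106 input reads, 208 IP reads and a log2 enrichment of 3.36. A5-KO PP had peaks 2014, 2451 and 3614 nt after the stop codon with 32, 26 and 90 input reads and log2 enrichments of 1.29, 3.56 and 1.99. An A5-KO PP peak of 25 nt at the 5′ end held 38 IP reads and 0 input reads, and no enrichment is given for it.

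CNOT6L has a 3′ UTR of 7044 nt, and its peaks lay near the stop codon or before it. In DE, a peak centred 121 nt after the stop codon had 9 input and 33 IP reads and a log2 enrichment of 2.12 with a counting error of 0.53. The A5-KO PP list held a peak over the same stretch and another in exon 8, neither with an established pairing. The WT PP peak, at -129 nt from the stop codon, had 62 input and 91 IP reads after re-pairing. No CNOT6L peak was listed in hPSC, PP or hILO, which at these depths does not show that the transcript was unmethylated.

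The other catalytic pair was CNOT7 (ENSG00000198791, chr8:17224966-17246878, minus strand) and CNOT8 (ENSG00000155508, chr5:154857553-154876792, plus strand). CNOT7 had 14 peaks and CNOT8 had 11. The CNOT7 peaks had no region in all 4 stages. Its 5′ UTR was marked in hPSC, DE and PP, with 43 input and 376 IP reads in hPSC after re-pairing. Region 5, off the isoform used here, was found in hPSC (87 input and 741 IP reads), DE, hILO (725 and 2601 reads) and A5-KO PP, with counts re-paired. WT PP and A5-KO PP listed the same 175 nt of coding exon 3. For WT PP the re-paired counts there were 107860 input and 68443 IP reads, far above every other member peak, of which the next had 4523 input reads. The A5-KO PP peak had no established pairing. The offset behind the WT PP value had a probability of 0.96, just above the limit of 0.95, so the counts may belong to another peak, and they were used in no comparison. The other CNOT7 peaks lay 3081 nt after the stop codon in PP, 1256 nt after it in A5-KO PP, and off the isoform in DE, PP and A5-KO PP.

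CNOT8 was marked next to its stop codon. Region 4 (chr5:154875414-154875738), 152 nt after it, was found in every list but WT PP. In hPSC it held 2 peaks with 391 and 141 input reads, 2981 and 971 IP reads and log2 enrichments of 1.46 and 1.37, and in DE 1 peak with 627 and 1253 reads and 1.47. These 3 log2 enrichments ran from 1.37 to 1.47, with counting errors of 0.0706 to 0.13. After re-pairing, PP had peaks with 325 and 225 input reads and 1048 and 576 IP reads, hILO had 624 and 1321 reads, and A5-KO PP had 871 and 1577. WT PP instead listed a 50 nt peak 1052 nt after the stop codon, with 607 input and 1777 IP reads at an offset of probability 0.961, and a 5′ UTR peak with no established pairing. A5-KO PP had a further peak at -98 nt from the stop codon, with 526 and 1878 reads. hPSC had a 5′ UTR peak with only 5 input and 115 IP reads and a log2 enrichment of 2.01 with a counting error of 0.63.

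The adaptor genes TOB1 (ENSG00000141232, chr17:50862223-50867978, minus strand) and BTG2 (ENSG00000159388, chr1:203305491-203309602, plus strand) each have 2 exons and carried a long peak region in all 6 lists. In TOB1 it lay in the coding sequence, which fills much of the last exon, and in BTG2 it ran from within the coding sequence into the 3′ UTR. The BTG2 bases shared by all 6 lists lay in the 3′ UTR. TOB1 region 2 (chr17:50863148-50866141) covered 1100 exonic nt, of which 575 were spanned in all 6 lists. In hPSC it was a single peak of 800 nt with 421 input and 5522 IP reads and a log2 enrichment of 2.27. In DE it was split into a peak with 462 and 1289 reads and 2.05 and a peak with 428 and 1000 reads and 1.55. After re-pairing, the same part of the transcript had 315 and 352 input reads with 1486 and 1701 IP reads in PP, 1165 and 1134 with 5676 and 2281 for WT PP, and 1003 and 773 with 3184 and 1491 in A5-KO PP. In hILO a 75 nt peak had 166 and 319 reads, and the 800 nt peak beside it had no established pairing. The 5′ UTR of TOB1 was marked in hPSC (120 and 1072 reads, log2 enrichment 1.52), in DE (206 and 471 reads, 1.13) and in WT PP (re-paired, 106 and 254 reads).

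BTG2 region 2 (chr1:203305741-203308045) shared 450 nt among the 6 lists, centred 235 nt after the stop codon. hPSC had 82 input and 1028 IP reads there and a log2 enrichment of 2.23. DE had 1908 and 5424 reads and 1.73. The remaining counts were re-paired, with 576 and 3116 reads in PP, 1088 and 3908 in hILO, 4523 and 19685 for WT PP and 2308 and 10012 for A5-KO PP. Shorter stretches of the same region were listed apart, with 145 input and 798 IP reads in PP and 535 and 1165 in hILO. The start of the gene was marked in DE (135 and 402 reads, log2 enrichment 1.27) and in hILO (re-paired, 291 and 671 reads). hILO alone had a peak 1735 nt after the stop codon, with 774 and 1404 reads. Input and IP reads are not scaled between lists, and the input reads in BTG2 peaks, lowest in hPSC and highest in WT PP, were not corrected for depth or peak length.

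**Figure D4:**
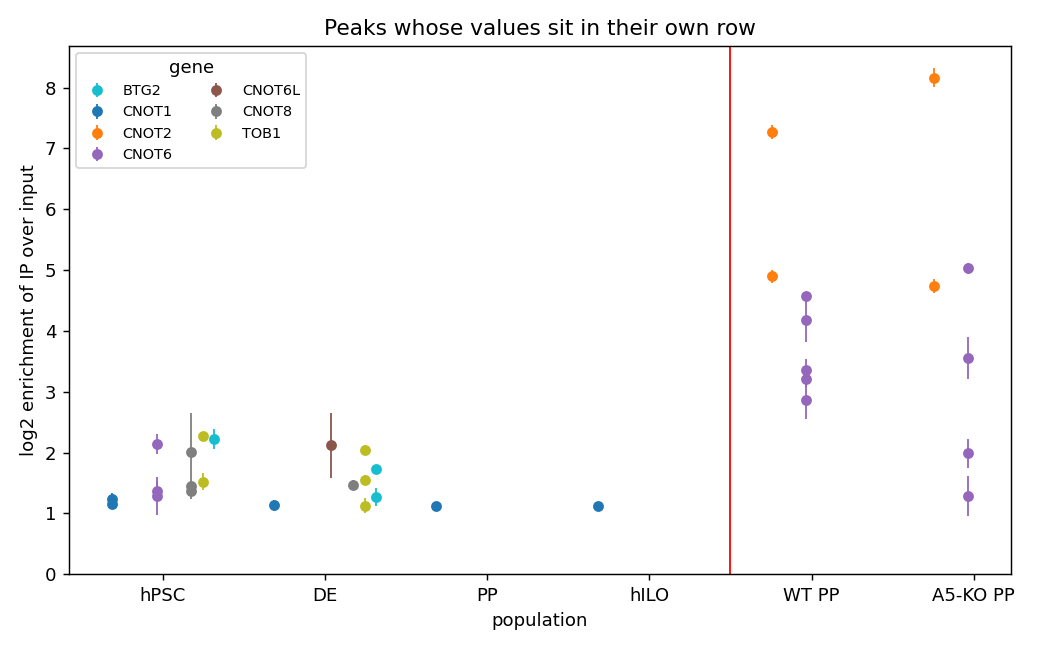
Deposited log2 enrichment of IP over input (vertical axis) of the member peaks with values in their own row and at least 1 input read, by population (horizontal axis) and gene (colour), with bars for 1 standard error of counting. The red line separates the 2 experiments, the CNOT1 points stay between 1.12 and 1.24, and the 2 highest points are CNOT2 region 4 in WT PP (7.27) and A5-KO PP (8.16).

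Placed by their midpoints on the coding isoform, 110 of the 136 peaks fell on it. Of these, 50% lay in the 3′ UTR (Wilson 95% interval 40.8% to 59.2%), 38.2% in the coding sequence (29.6% to 47.5%) and 11.8% in the 5′ UTR (7.04% to 19.2%). Over all placed peaks of the series the shares were 38.7%, 55.9% and 5.39%. The order of the first 2 shares depended on the isoform and on the rule of placement. Both the definition used here and its alternative, the longest transcript, were chosen after seeing the data. On the longest transcript 40.9% of the placed member peaks lay in the 3′ UTR and 44.1% in the coding sequence, and on the MANE Select isoform 50.5% and 38.5%. The order also turned when any overlap with a region counted in place of the midpoint, with 46.7% of the peaks overlapping the 3′ UTR and 58.3% the coding sequence. Peaks of different lists on the same transcript are not independent, so these intervals are too narrow. The 3′ UTR share was lowest in WT PP, at 33.3%, and highest in A5-KO PP, at 63.2%, at 7 of 21 and 12 of 19 placed peaks, with intervals of 17.2% to 54.6% and 41% to 80.9% that overlapped. Over all placed peaks the order of these 2 lists was the opposite, with 41.6% and 35.2%.

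Of the 7 regions in all 6 lists, 5 were centred in a 3′ UTR, beside 45.5% of the 6978 regions of all peaks that were found in all 6 lists and placed on an isoform, a difference that was not tested. Of the 5, CNOT2 region 3, CNOT4 region 5, CNOT6 region 6 and BTG2 region 2 lay 88, 105, 126 and 235 nt after the stop codon. A midpoint within the first 200 nt after the stop codon was found in 7 of 10 members in some list, where 48% of the 14942 protein-coding genes with a placed peak had one. This window was chosen after the positions were seen. By gene it was found in 6 lists for CNOT4 and CNOT6, in 5 for CNOT2 and CNOT8, in 3 for BTG2, in 2 for CNOT6L and in 1 for CNOT1. CNOT3, CNOT7 and TOB1 had none. The catalytic paralogs CNOT7 and CNOT8 thus differed in listed position, with peaks in this window in 5 lists for CNOT8 and in none for CNOT7. All CNOT8 peaks were placed on the isoform. The CNOT7 peaks of region 5 and others of that gene lay off it and could not fall in the window, so the contrast holds for the isoforms used here only.

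Regions found in 1 list only were 27 of the 52 (51.9%), near the 53.5% of all 88196 regions of the series. WT PP had 10 and A5-KO PP had 7, against 2, 3, 4 and 1 in the stages from hPSC to hILO. Over all regions, 12.7% were found only in WT PP and 23.4% only in A5-KO PP, and among the members 19.2% and 13.5%. For hPSC, DE, PP and hILO the shares of all regions were 5.5%, 3.43%, 3.21% and 5.26%, and those of the member regions 3.85%, 5.77%, 7.69% and 1.92%. The lists of WT PP and A5-KO PP were also the longest, with 43312 and 55219 peaks against 29083 to 36659 in the 4 stages. From stage to stage, 11 of 23 DE peaks (47.8%, Wilson 95% interval 29.2% to 67%) were covered over more than 50% of their exonic length by hPSC peaks, beside 64.7% of all DE peaks. The share was 13 of 22 for PP peaks covered by DE (59.1%, 38.7% to 76.7%), beside 56.9% of all. It was 8 of 20 for hILO peaks covered by PP (40%, 21.9% to 61.3%), beside 45.5% of all. Of the A5-KO PP peaks, 12 of 24 (50%, 31.4% to 68.6%) were covered by WT PP, beside 46.7% of all. Between the 2 experiments, 8 of 24 WT PP peaks (33.3%, 18% to 53.3%) were covered by PP peaks, beside 22.4% of all. In each of these steps the share over all peaks lay inside the interval of the members.

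At peaks shared by successive populations, a pair was called where its log2 enrichment differed by at least 1 and by more than the 95% range of the counting error. From hPSC to DE, 0 of the 6 member pairs with values in their own rows in both lists were called, where 1.73% of all such pairs were. The differences ran from -0.71 at a TOB1 peak to 0.01 at CNOT8, with a median of -0.30, and the median over all own-row pairs was -0.12. For TOB1, log2 enrichment fell from 2.27 to 1.55 in the part near the stop codon, a difference of -0.71 with a 95% range of 0.217, and from 2.27 to 2.05 in the other part, a difference of -0.22 with a range of 0.21. Both DE peaks were set against the same hPSC peak. The 5′ UTR peak of TOB1 went from 1.52 to 1.13, a difference of -0.39 with a range of 0.36, and BTG2 from 2.23 to 1.73, a difference of -0.50 with a range of 0.332. The TOB1 and BTG2 differences exceeded their counting ranges, and the spread between cultures could not be set beside them. As log2 count ratios, without the GC correction and with the median shared pair at 0, the 3 TOB1 differences were -0.49, -0.23 and 0.04 and that of BTG2 was -0.12, so that the 5′ UTR peak of TOB1 and the BTG2 peak no longer exceeded the counting range. CNOT1 region 4 went the other way, from -0.02 in the deposited enrichment to -0.23 as a count ratio, beyond its range of 0.208. From DE to PP and from PP to hILO, CNOT1 region 4 was the only own-row pair, with differences of 0.00 and -0.01. It was not called, where 2.06% and 1.21% of all own-row pairs were.

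The re-paired counts gave more pairs, compared as log2 count ratios with the median shared pair of the 2 lists set to 0. From hPSC to DE, 1 of 7 pairs was called, beside 3.11% of all such pairs. It was CNOT2 region 4, higher in DE by 1.08 with a 95% range of 0.18, at 654 input and 4922 IP reads in hPSC and 535 and 2131 in DE. As deposited, its 2 rows differed by 0.72. From DE to PP, 0 of 8 pairs were called (4.44% of all), with differences of -0.38 to 0.31. From PP to hILO, 0 of 3 were called (4.91% of all), with differences of -0.03 to 0.36. The highest was that of CNOT1 region 4, beyond its range of 0.163, where the deposited log2 enrichment differed by -0.01.

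**Figure D5:**
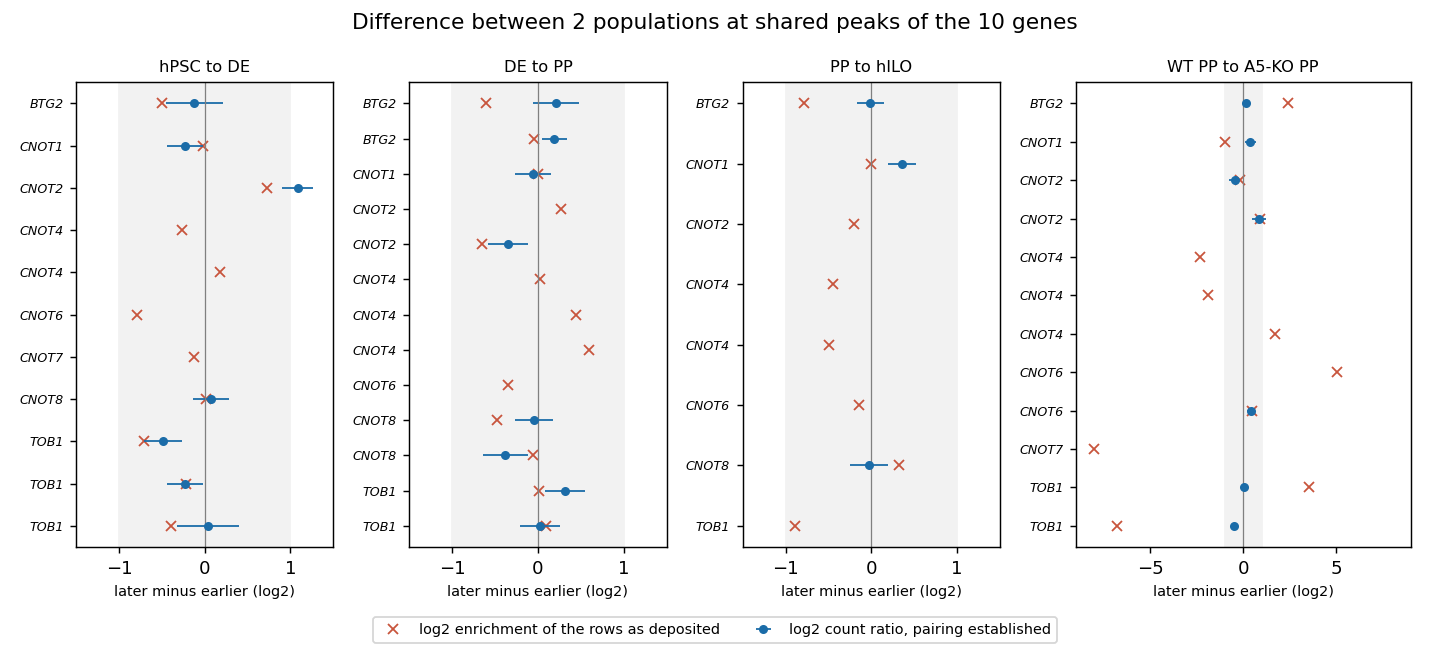
Later minus earlier population at each shared member peak (vertical axis, 1 line per pair) on the log2 scale (horizontal axis, wider in the last panel). Red crosses are differences in the deposited log2 enrichment of the rows, blue points are differences in log2 count ratio with 95% counting ranges where the pairing was established and both peaks had input reads, and the grey band spans -1 to 1. From WT PP to A5-KO PP the crosses run from -8.03 to 5.03 while the points stay within -0.49 to 0.85.

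WT PP and A5-KO PP were compared by 1 pooled value each. At the PP stage the study reports fewer cells positive for both PDX1 and NKX6.1 in the knockout, and more albumin-positive cells. Cell composition and the missing demethylase therefore cannot be told apart here. Of the 12 shared member pairs, 4 had their values in their own rows in both lists and 3 of these had input reads in both. None of the 3 was called, where 28.1% of all such pairs were. CNOT2 region 3 went from 4.90 to 4.74, a difference of -0.16 with a 95% range of 0.311. CNOT2 region 4 went from 7.27 to 8.16, a difference of 0.89 with a range of 0.376. CNOT6 region 6 went from 4.57 to 5.03, a difference of 0.46 with a range of 0.233. The differences at CNOT2 region 4 and CNOT6 region 6 exceeded the counting range and that at CNOT2 region 3 did not. As log2 count ratios with the median shared pair at 0 the 3 differences were -0.46, 0.85 and 0.42, each beyond its counting range, and these depended on the offset as given in the next paragraph.

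Rows as deposited gave a different picture of the knockout, with differences of -8.03 to 5.03 and 4 called pairs among the 12. The lowest was at CNOT7, where no pairing was established, and the highest at the 25 nt CNOT6 peak without an input read. TOB1 differed by -6.81 and 3.54 at its 2 coding peaks as deposited, and by -0.49 and 0.07 with re-paired counts. BTG2 differed by 2.40 as deposited and by 0.12 re-paired, and CNOT1 region 3 by -1.01 and 0.38. Over the 7 pairs with an established pairing and input reads, the re-paired differences ran from -0.49 to 0.85 and 0 were called, beside 33.2% of all such pairs. These differences are relative to the median shared pair. With the median count ratio of each list as the offset instead, the median shared pair moved by -0.53, the differences of BTG2, CNOT1 region 3, CNOT6 region 6 and the TOB1 peak near the stop codon became -0.41, -0.15, -0.12 and -0.47, and the other TOB1 peak, at -1.02, was called. With that offset CNOT2 region 4 stood at 0.31, inside its counting range of 0.376, and CNOT2 region 3 at -0.997, just short of a call. The signs at both CNOT2 regions and the other TOB1 peak were the same with either offset, their sizes were not, and the remaining signs turned. For CNOT4 and CNOT7, whose deposited rows differed by -2.35 to 1.68 and by -8.03, no value is given.

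The density of DRACH sites under the member peaks could not be told apart from that in the rest of the same exons. The merged peaks of the 6 lists covered 11368 nt and held 217 DRACH sites, 19.1 per kb, against 18.4 per kb outside them, a ratio of 1.04 (95% counting interval 0.9 to 1.2). On the opposite strand the ratio was 0.803 (0.688 to 0.937). The shorter motif GGAC, a common core of DRACH sites, occurred 42 times at a ratio of 1.5 (1.07 to 2.11), beside 1.36 (0.924 to 2) on the opposite strand. Over all genes with a peak, list by list, the DRACH ratio was 1.21 to 1.27 and the GGAC ratio 1.38 to 1.64, and over the members the DRACH ratio was 0.874 to 1.16 by list. The difference between the members and all genes was not tested. The motifs overlap, since GGAC followed by A, C or T is also a DRACH site. A DRACH site was present in 85.3% of member peaks and in 90.9% of all peaks, and GGAC in 42.6% and 55.2%.

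Other genes of deadenylation and decay were taken from a list of 42, including the remaining CCR4-NOT subunits, the PAN2-PAN3 deadenylase, RNA-binding adaptors, the decapping factors and XRN1. In the same order of lists as above, 32, 34, 30, 36, 40 and 35 of these had a peak, and 23 had one in all 6 lists. Over all protein-coding genes the shares were 60.2%, 57%, 52.2%, 57.7%, 62.8% and 69.7% by list and 37.7% for all 6 lists. NANOS3, a germ-cell RNA-binding protein, had none. The most peaks in hPSC were on TNRC6A (9), TNRC6C (9) and SAMD4A (6). TNRC6A and TNRC6C are scaffold proteins of microRNA silencing that bind CCR4-NOT, and SAMD4A is an RNA-binding repressor. CNOT9, a core subunit, had 1 peak in hPSC, 3 in DE and 2 in each of the other lists, and CNOT10 and CNOT11, which form the module at the start of CNOT1, had no peak in hPSC. Re-paired counts with the median shared pair at 0 called 1 of 40 pairs of the 42 genes from hPSC to DE, beside 3.11% of all such pairs. They called 1 of 32 from DE to PP and 0 of 23 from PP to hILO, beside 4.44% and 4.91%. From WT PP to A5-KO PP they called 6 of 51 higher and 4 lower, beside 33.2% of all such pairs. That split depended on the offset. With the list medians as offsets, own-row pairs gained lower calls on ANGEL1 and CPEB4 and lost higher calls on SAMD4A and CPEB4, while a higher call on TENT4A stayed. Among own-row pairs, 0 of 20 were called from hPSC to DE, 0 of 2 from DE to PP and 0 of 1 from PP to hILO. The shares over all own-row pairs were 1.73%, 2.06% and 1.21%. From WT PP to A5-KO PP, 4 of 24 were called higher and 3 lower by the deposited enrichment, beside the 28.1% of all own-row pairs called in either direction.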

How the data were processed

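m6A-seq of 24 libraries was used. Per the study's methods, the authors used fastp for trimming, HISAT2 for alignment to GRCh38 (1 alignment kept per read) and exomePeak2 for peaks. There is 1 deposited list per population. For each peak the deposited lists give IP and input read counts pooled over libraries (sum or mean not stated, taken here as sums), a log2 enrichment with a GC correction, and a p-value with its adjusted p-value. All deposited peaks had a log2 enrichment of at least 0.585 and an adjusted p of at most 0.05. The lists are thus looser than the p below 1e-05 named in the methods, which 54.1% to 94.3% of the deposited rows met. At that p, 18, 16, 18, 19, 16 and 14 member peaks were left in the 6 lists from hPSC to A5-KO PP.

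The 10 members and the 42 further genes were chosen with earlier results of these data known. All members were named. From the further genes, those with no peak, the 3 with the most peaks in hPSC and those called from WT PP to A5-KO PP at 50 or more input reads were named; the CNOT9 to CNOT11 values were picked after they were seen. Regions were described in full where found in all 6 lists, in all 4 stages, in 1 list with 50 or more input reads, or where called.

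Row offsets between peaks and counts were estimated with a hidden Markov model of peak length and IP reads along each list, with offsets of -60 to 15 rows. An offset counted as established at a probability above 0.95 and a correlation of at least 0.2 over 150 rows on each side. On peaks of hPSC simulated with known offsets, 99.3% of 11364 rows were established and 100% of those correctly, and with counts in random order 1.29%. The simulated rows came from a stretch of hPSC with counts in their own rows, and 5% of them were left out. In the real lists up to 9.51% of peak numbers were absent, in WT PP, so the simulated accuracy need not hold for the re-paired counts. The pairing of rows, the offset of the count ratios (median shared pair at 0, pseudocount 1) and the isoform (complete coding sequence, longest, GENCODE 44) were chosen after seeing the data, as was the count of single-list regions over all peaks. The site sequence of 1 further region found in all 6 lists is not reported here. Counting errors used 0.5 added to each count. No test between populations was possible, since no values per library were analysed here, so edgeR and DESeq2 were not run. PCR copies are not independent molecules, and intervals cover counting error only. Python 3.11.15, pandas 2.3.3, scipy 1.17.1 and pysam 0.24.0 were used.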

Additional observations from a re-analysis of the deposited data

How the results depend on the processing

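No paired analysis was possible because each list pools its libraries, so no replicate block was fitted and no replicate was left out. Of 104 values under alternatives, 84 stayed within their range and 20 moved. Requiring an IP/input ratio of at least 3 left 12, 12, 11 and 8 member peaks in hPSC, DE, PP and hILO. A p below 1e-10 left 12, 11 and 13 in hPSC, DE and PP, and 7 and 8 in WT PP and A5-KO PP, and a p below 1e-05 left 14 in A5-KO PP. These thresholds read the row as deposited, which may carry another peak's values. The share of PP peaks found in DE was 36.4% with reciprocal overlap over 50%, and 63.6% of PP peaks were covered by hILO when counted from the earlier stage. Re-paired counts called 1 pair from hPSC to DE with either offset. From WT PP to A5-KO PP, all rows as deposited called 4 pairs, and re-paired counts with the list medians as offsets called 1. The share in the coding sequence was 58.3% when any overlap counted, above the 46.7% in the 3′ UTR. In place of the DRACH ratio, GGAC gave 1.5, the opposite strand 0.803 and GGAC on the opposite strand 1.36. Counts called by enrichment rest on few pairs, since most member peaks had no values in their own row.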

Other observations

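Among the further genes of deadenylation and decay, own-row pairs called from WT PP to A5-KO PP by the deposited log2 enrichment, with 50 or more input reads in both peaks, were on ANGEL1, SAMD4A, TENT4A and CPEB4. Their log2 count ratios, without the GC correction and with the median shared pair at 0, were not called for ANGEL1 and for 1 of the 2 TENT4A pairs.

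CPEB4, a cytoplasmic polyadenylation factor, went from a log2 enrichment of 5.11 (241 input and 2592 IP reads) to 6.35 (74 and 1666 reads), and its count ratio differed by 1.18 with a 95% counting range of 0.385. Other CPEB4 peaks fell from 4.25 to 3.33 and from 3.70 to 3.25, and were not called. Their count ratios differed by -0.96 and -0.64, beyond ranges of 0.407 and 0.499. A further CPEB4 peak, with 16 input reads in A5-KO PP, rose from 1.81 to 3.48. TENT4A, a non-canonical poly(A) polymerase, went from 1.61 (96 and 69 reads) to 2.89 (52 and 101 reads), a difference in count ratio of 1.54 with a range of 0.655. At another TENT4A peak the deposited enrichment went from 3.48 (86 and 323 reads) to 1.28 (81 and 218 reads), while the count ratio differed by -0.35, inside its range of 0.502.

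In SAMD4A and ANGEL1 a long WT PP peak was split into several A5-KO PP peaks, all set against a single WT PP value. The SAMD4A peak stood at 5.38 (218 and 1457 reads) in WT PP and its parts at 1.54 (146 and 314 reads) and 5.85 (137 and 1591 reads) in A5-KO PP, with differences in count ratio of -1.51 and 0.92. For ANGEL1, of the same nuclease family as CNOT6, the WT PP peak stood at 4.48 (210 and 1268 reads). Its A5-KO PP parts stood at 1.62 (51 and 177 reads), 3.55 (59 and 184 reads) and 5.44 (79 and 804 reads), with differences in count ratio of -0.69, -0.84 and 0.87, none of them called. With the list medians as offsets, the ANGEL1 differences of the first 2 parts became -1.22 and -1.37, which were called. The CPEB4 peaks that rose then stood at 0.65 and 0.94, which were not called. Those that fell stood at -1.50 and -1.17, which were called.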
